A study of Mus musculus with 12 samples.

Results

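The Zfp genes are the mouse genes named "zinc finger protein" with a number. They were taken as all measured genes whose symbol starts with Zfp followed by a digit, 1 probe set for each gene, and 223 of the 9984 genes with a single symbol met this rule. RefSeq lists 221 of the 223 as protein-coding, Zfp389 as a transcribed pseudogene and Zfp85os as a long noncoding RNA. The name is a matter of nomenclature and not of one function. Members were taken by symbol, each with its probe set of highest mean, and earlier results of these data were known.

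Expression was measured on 12 Affymetrix gene arrays of sorted mouse marrow cells, 3 in each of 4 groups. The first group was hematopoietic stem cells (HSCs) from Erg +/- mice, which were bred from a floxed Erg allele and a general Cre deleter line, and the second was HSCs from Erg +/+ mice. The third group was multipotent progenitors (MPPs) from Erg -/- mice, which were Erg fl/fl with Mx1-Cre, and the fourth was MPPs from Erg fl/fl mice without Cre. The floxed piece is exon 11, which encodes the DNA-binding domain of Erg, an ETS-family transcription factor. Both MPP groups were sorted 2 weeks after the start of a course of 5 pIpC injections. This synthetic RNA triggers interferon, which switches on Mx1-Cre. The HSC labels record no pIpC, so population, pIpC and the floxed allele cannot be told apart between HSC and MPP controls. Between the MPP groups, Mx1-Cre and loss of Erg cannot be told apart, since the Erg fl/fl controls carry no Cre. All mice were male on a C57Bl/6 background of at least 6 generations. The titles call the Erg +/- samples knock-outs, whereas the genotype field gives Erg +/-, which is used here. The MPP labels give 2 different gates, CD150-negative in one field and the CD150-positive, CD48-negative gate of HSCs in another. Erg itself is not analysed here, so the genotypes were not checked on its level, and nothing in the labels says that the samples came from separate animals.

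Most Zfp proteins carry C2H2 zinc fingers, each a short fold held by a zinc ion, and a row of such fingers reads a stretch of DNA. Many of them join the fingers to a KRAB domain, which recruits the corepressor Trim28 and with it the histone methyltransferase Setdb1, and KRAB zinc finger proteins are known for silencing transposable elements. Others carry a SCAN domain, with which such proteins pair, or act in RNA processing, ribosome maturation or cell division. KRAB genes lie in clusters of close relatives that arose by duplication, so probe sets of neighbours can share signal.

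The 250 bases upstream of the start are shown for the members on which the results turn. Zfp617 had the lowest p-value in HSCs, Zfp961 had the lowest in MPPs and is the next gene to it on chromosome 8, Zfp873 was low in both genotypes, Zfp759 had the second lowest p-value in HSCs, and Zfp174 was the gene that passed the test between the controls. The sequences are from RefSeq on GRCm38.p6 and run 5′ to 3′ along the gene, on the + strand in all cases. Capitals mark the ETS-type letters CGGAAG or their reverse complement CTTCCG. The windows are chr8:71922575-71922824 for Zfp617, chr8:71950816-71951065 for Zfp961, chr10:82047873-82048122 for Zfp873, chr13:67127978-67128227 for Zfp759 and chr16:3846973-3847222 for Zfp174.
Zfp617: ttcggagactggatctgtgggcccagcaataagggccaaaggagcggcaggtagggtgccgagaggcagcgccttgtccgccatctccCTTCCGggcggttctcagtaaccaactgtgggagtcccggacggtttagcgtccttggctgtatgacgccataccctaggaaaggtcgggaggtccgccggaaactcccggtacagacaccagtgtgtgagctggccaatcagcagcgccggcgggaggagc
Zfp961: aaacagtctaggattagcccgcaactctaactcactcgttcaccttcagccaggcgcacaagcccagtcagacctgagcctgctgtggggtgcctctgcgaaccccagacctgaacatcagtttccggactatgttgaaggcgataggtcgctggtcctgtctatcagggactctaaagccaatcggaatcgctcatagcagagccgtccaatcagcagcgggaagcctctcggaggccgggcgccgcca
Zfp873: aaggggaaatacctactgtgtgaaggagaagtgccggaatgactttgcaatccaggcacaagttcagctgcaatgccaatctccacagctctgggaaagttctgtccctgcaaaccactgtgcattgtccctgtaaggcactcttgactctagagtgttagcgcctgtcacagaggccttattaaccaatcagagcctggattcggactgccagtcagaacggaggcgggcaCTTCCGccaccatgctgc
Zfp759: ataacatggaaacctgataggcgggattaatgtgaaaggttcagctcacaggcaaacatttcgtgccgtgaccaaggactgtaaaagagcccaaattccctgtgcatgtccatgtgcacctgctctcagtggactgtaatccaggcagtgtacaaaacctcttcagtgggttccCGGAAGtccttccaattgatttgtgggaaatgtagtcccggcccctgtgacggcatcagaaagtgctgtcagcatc
Zfp174: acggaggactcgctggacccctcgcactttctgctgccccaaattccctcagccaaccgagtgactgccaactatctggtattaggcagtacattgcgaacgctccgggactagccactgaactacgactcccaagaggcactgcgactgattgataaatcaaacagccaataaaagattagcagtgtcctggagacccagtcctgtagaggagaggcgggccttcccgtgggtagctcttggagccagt
Zfp617, Zfp873 and Zfp759 each hold the letters 1 time in these windows, and Zfp961 and Zfp174 hold them 0 times. Of the 223 Zfp genes, 186 have an entry in the RefSeq promoter table, which covers 250 bases before and 50 after each start. The longer form CCGGAAG, on either strand, lay in a promoter of 42 of these 186 genes, or 22.6% (95% Wilson interval 17.2 to 29.1%), against 15.6% of the 7728 measured genes with an entry and 9.93% of all 27025 genes in the table. The interval treats the genes as independent, which genes that arose by duplication may not be, and the shares were not tested against each other. CGGAAG, which the longer form contains, lay in 39.2% of Zfp genes, against 28% of measured genes and 18.8% of all genes. The core GGAA, contained in both, lay in 96.2% of Zfp genes, 96.3% of measured genes and 96.5% of all genes. Base composition differs between these lists, with a median of 15.5 CpG in 300 bases for Zfp genes, 18 for measured genes and 8 for all genes, and its part in the shares was not tested. A match of letters is a description of the sequence and not a site of Erg binding.

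The median over the Zfp genes was lower on all Erg +/- HSC arrays than on the Erg +/+ HSC arrays. It was 6.12, 6.08 and 6.16 on the log2 scale in Erg +/- HSCs, against 6.34, 6.19 and 6.26 in Erg +/+ HSCs. The Zfp median was 6.07, 6.00 and 5.94 in Erg -/- MPPs, against 6.21, 6.11 and 5.99 in Erg fl/fl MPPs, and these groups overlapped. The median of all genes was between 5.76 and 5.84 on the 12 arrays.

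**Figure D1:**
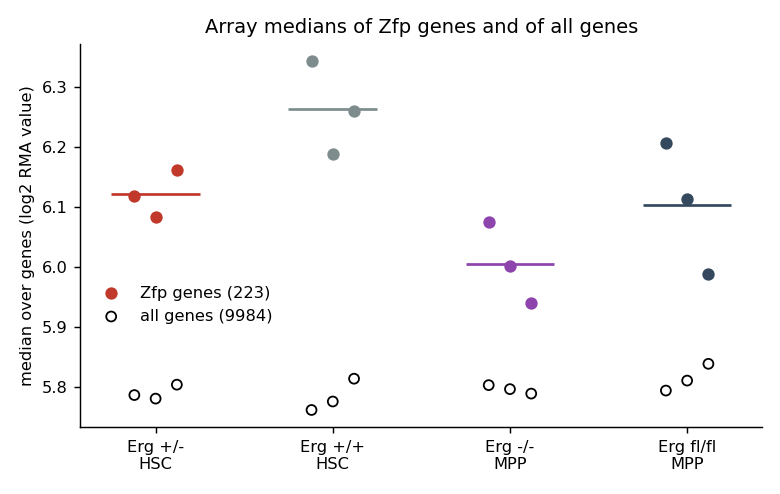
Median log2 value of the 223 Zfp genes (filled) and of all 9984 genes (open) on each of the 12 arrays, by group, with a line at the mean of the Zfp medians. The Zfp medians of Erg +/- HSC arrays (6.08 to 6.16) lie below those of Erg +/+ HSC arrays (6.19 to 6.34), while the all-gene medians stay between 5.76 and 5.84.

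Erg +/+ HSCs had the highest of the 4 group means for 91 Zfp genes, or 40.8%, against 23.6% of all genes. Erg +/- HSCs had the lowest mean for 65 Zfp genes (29.1%, against 23.1% of all genes) and Erg -/- MPPs for 63 (28.3%, against 21.2%). Erg +/+ HSCs had the lowest for 46 (20.6%, against 39.1% of all genes), and Erg fl/fl MPPs had the highest for 54 (24.2%, against 29.8%). The spread of values differed between arrays, with an interquartile range over all genes of 2.42 to 2.55 in Erg +/- HSCs, 2.54 to 2.71 in Erg +/+ HSCs, 2.06 to 2.24 in Erg -/- MPPs and 2.14 to 2.63 in Erg fl/fl MPPs. Replicate 1 of Erg fl/fl MPPs and replicate 1 of Erg +/+ HSCs, the arrays with the widest spread in their populations, also had the highest Zfp medians and the lowest array weights, limma's estimate of how closely an array follows its group, and the part of the spread in the Zfp levels was not tested. Stem cell markers separated the populations by level, with summed linear values over the 4 measured of 10 listed of 788 to 2481 in MPPs and 5607 to 6764 in HSCs.

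In HSCs, loss of 1 Erg allele was accompanied by lower values for most Zfp genes, in general by a small amount. The difference was below 0 for 143 of 223 Zfp genes, or 64.1%, against 46.2% of all genes. The median difference was -0.09 for Zfp genes, against 0.02 for all genes. By limma with Benjamini-Hochberg adjustment over 9984 genes, 0 Zfp genes passed 0.05, where 0.02% of all genes did. At an unadjusted p under 0.05 there were 27 Zfp genes (12.1%, against 6.32% of all genes), 21 of them lower (9.42%, against 3.59%) and 6 higher (2.69%, against 2.73%). Without the 2 arrays of lowest weight there were still 143 negative differences, and 14 were lower at that level (6.28%, against 3.66%). Without replicate 2 of the Erg +/+ HSCs the median was -0.06 and 130 were below 0.

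The groups did not overlap for 19 Zfp genes that were lower in Erg +/- HSCs (8.52%, against 4.38% of all genes) and for 7 that were higher (3.14%, against 6.06%). Endothelial and stromal marker genes moved the same way in these arrays. Over the 5 measured of 12 listed, all 5 differences were negative and 1, that of Sparc, was called (-2.08, adjusted p = 0.0401 by limma), and the summed linear values were 303 to 367 in Erg +/- HSCs, against 529 to 1131 in Erg +/+ HSCs. Erythroid markers ran the other way, with sums of 1153 to 1707 in Erg +/- HSCs, against 510 to 1056 in Erg +/+ HSCs, over 10 measured of 16 listed. All 10 differences were positive and 0 were called. Car1, a bright one, averaged 9.42 ± 0.51 in Erg +/- HSCs and 7.98 ± 1.27 in Erg +/+ HSCs. Stem cell marker sums were 6410 to 6764 in Erg +/- HSCs, against 5607 to 6246 in Erg +/+ HSCs. Of the 4 differences 3 were positive and 1 negative, from -0.25 to 1.22 with a median of 0.05, and 0 were called. Such sums follow the brightest markers. The part of other cells in the Zfp values was not tested, and in bulk RNA fewer cells of a type and less RNA per cell cannot be told apart.

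**Figure D2:**
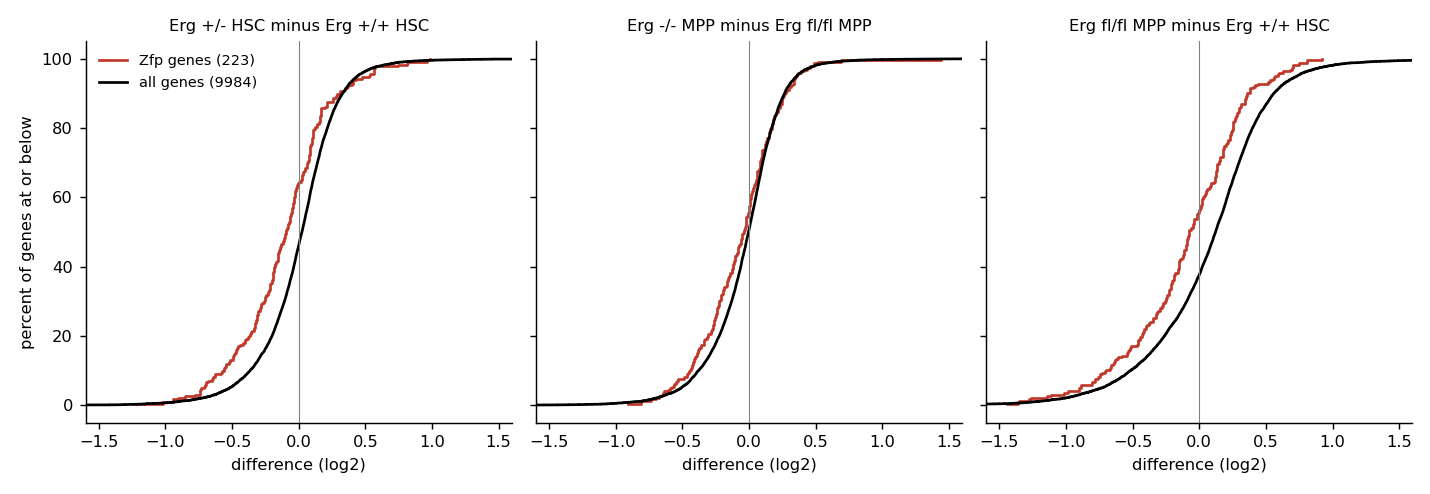
Cumulative percent of genes (y axis) at or below each log2 difference (x axis) for the 223 Zfp genes (red) and all 9984 genes (black) in 3 comparisons. The Zfp curve lies to the left of the curve of all genes in the Erg +/- HSC comparison (median -0.09, against 0.02) and in the comparison of controls (-0.08, against 0.12), and nearer to it with all 12 arrays in the Erg -/- MPP comparison (-0.04, against -0.004). The Erg +/- HSC comparison and the comparison of controls share the Erg +/+ HSC arrays.

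Zfp617 had the largest difference among Zfp genes in HSCs. Its values were 5.74, 5.42 and 4.79 in Erg +/- HSCs, against 6.80, 6.35 and 6.47 in Erg +/+ HSCs. The groups did not overlap, and the difference was -1.22 (SE 0.34), a 2.34-fold lower level, with adjusted p = 0.559 by limma.

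Zfp759, the first gene of a cluster on chromosome 13, had 6.63, 6.59 and 6.17 in Erg +/- HSCs, against 7.28, 7.15 and 7.81 in Erg +/+ HSCs. These arrays were also apart, with a difference of -0.95 (SE 0.29, adjusted p = 0.559 by limma). Zfp319 had 6.69, 6.57 and 6.90 in Erg +/- HSCs, against 7.15, 7.10 and 7.38 in Erg +/+ HSCs, a smaller difference of -0.49 between tight groups. A second probe set of Zfp319 averaged 5.23 ± 0.57 in Erg +/- HSCs and 5.95 ± 0.93 in Erg +/+ HSCs (SD, n = 3 each), where the spread was larger than the difference.

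Zfp608, which in mouse thymocytes represses Rag1, had 7.75, 7.65 and 7.54 in Erg +/- HSCs, against 8.28, 8.36 and 7.99 in Erg +/+ HSCs, again with no overlap. Zfp11 had 4.64, 6.08 and 5.03 in Erg +/- HSCs, against 5.99, 6.28 and 6.32 in Erg +/+ HSCs, and 1 Erg +/- array lay within the Erg +/+ range. Zfp202, whose human counterpart ZNF202 binds promoters of lipid metabolism genes, averaged 5.84 ± 0.18 in Erg +/- HSCs and 6.42 ± 0.38 in Erg +/+ HSCs. Zfp831 averaged 6.66 ± 0.54 in Erg +/- HSCs and 7.40 ± 0.41 in Erg +/+ HSCs, and for both genes the arrays overlapped.

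Zfp141, one of the 5 brightest members, had 8.37, 8.74 and 8.94 in Erg +/- HSCs, against 9.92, 9.88 and 9.30 in Erg +/+ HSCs, a difference of -1.02 (SE 0.46). Its second probe set did not show this, with means of 6.94 ± 0.39 in Erg +/- HSCs and 6.96 ± 1.05 in Erg +/+ HSCs.

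On the higher side Zfp940 had the lowest p-value. Its values were 6.27, 6.19 and 6.52 in Erg +/- HSCs, against 5.71, 5.86 and 5.83 in Erg +/+ HSCs, with no overlap and a difference of 0.53 (SE 0.18, adjusted p = 0.705 by limma). Zfp651 averaged 6.56 ± 0.05 in Erg +/- HSCs and 6.16 ± 0.16 in Erg +/+ HSCs, and Zfp292 averaged 7.94 ± 0.09 in Erg +/- HSCs and 7.60 ± 0.05 in Erg +/+ HSCs. The arrays of both genes were apart. Zfp729a, in the same chromosome 13 cluster as Zfp759, had the largest positive difference of the 6 at 0.96 (SE 0.39), with means of 8.37 ± 0.60 in Erg +/- HSCs and 7.40 ± 0.53 in Erg +/+ HSCs, whose arrays overlapped. Zfp593, whose yeast counterpart Bud20 matures the large ribosomal subunit, had 5.66, 6.82 and 7.17 in Erg +/- HSCs, against 5.88, 5.89 and 5.65 in Erg +/+ HSCs, so that 2 of 3 arrays were high. Zfp879, Zfp607b and Zfp971 were the other members with the lowest p-values on this side, with differences between 0.43 and 0.56.

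**Figure D3:**
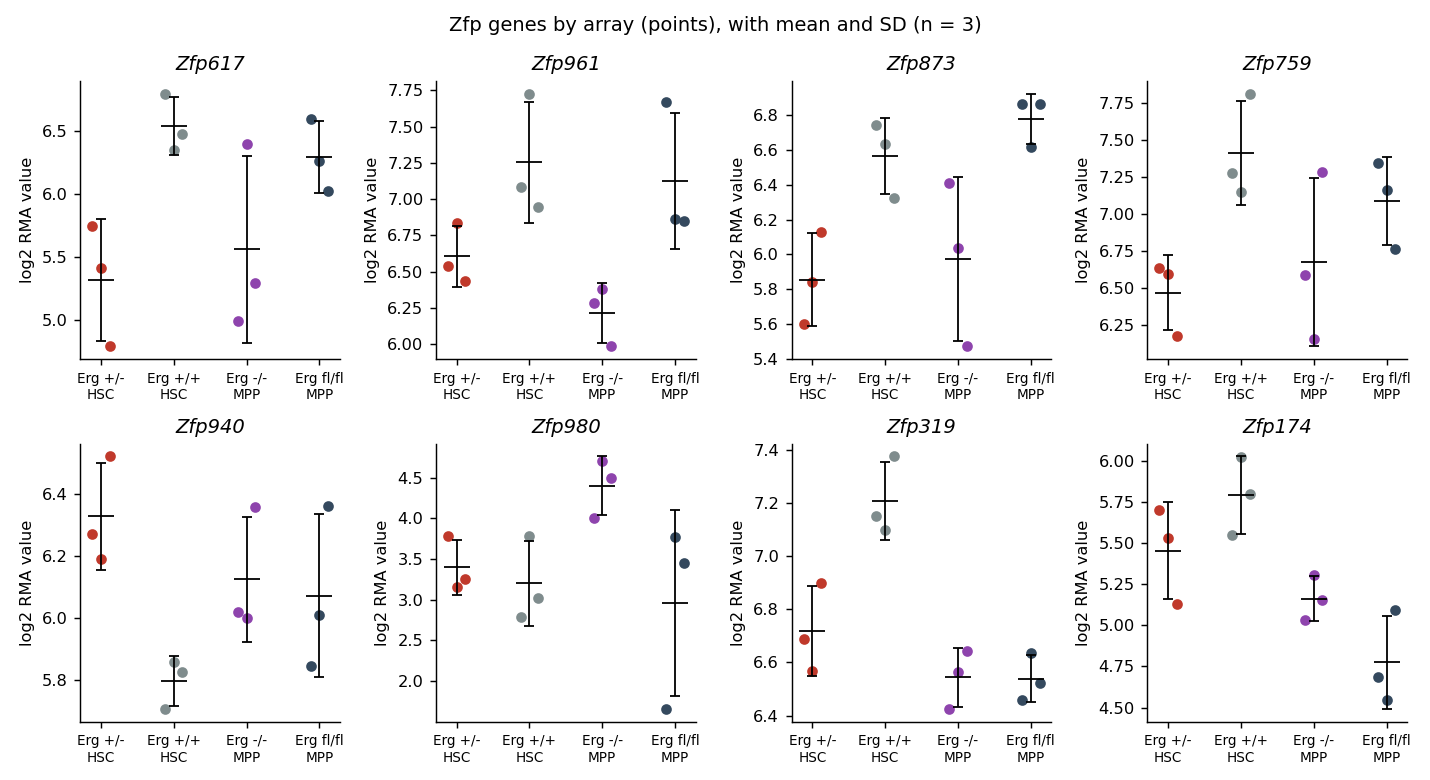
Log2 values of 8 Zfp genes on each array (points), with the mean and SD of each group (n = 3), on a separate y axis for each gene. Zfp961 and Zfp873 are lower without overlap in Erg +/- HSCs than in Erg +/+ HSCs and in Erg -/- MPPs than in Erg fl/fl MPPs, and Zfp174 is lower in Erg fl/fl MPPs than in Erg +/+ HSCs.

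In MPPs, with all arrays, the differences after loss of both Erg alleles lay near the background of all genes, but the distance from it depended on single arrays. The difference was below 0 for 126 of 223 (56.5%, against 50.6% of all genes), with a median of -0.04 for Zfp genes and -0.004 for all genes. Without replicate 3 of the Erg fl/fl MPPs, 143 were below 0 (64.1%, against 49% of all genes), with a median of -0.10 for Zfp genes and 0.01 for all genes. The Zfp median was -0.09 without replicate 1 of the Erg -/- MPPs, -0.06 without replicate 2 of the Erg fl/fl MPPs and -0.01 without replicate 2 of the Erg -/- MPPs. By limma 0 Zfp genes passed the adjusted threshold, where 0.0801% of all genes did, and 6 had an unadjusted p under 0.05 (2.69%, against 4.79%). Of these, 5 were lower (2.24%, against 3.58%) and 1 was higher (0.448%, against 1.21%), and with 1 array left out 4 to 9 were lower and 1 to 4 higher. The groups did not overlap for 13 that were lower (5.83%, against 6.1%) and 9 that were higher (4.04%, against 4.36%) in Erg -/- MPPs. Summed linear values of B cell markers were 2975 to 3238 in Erg -/- MPPs, against 4024 to 4795 in Erg fl/fl MPPs, over 6 measured of 9 listed. Most of these sums came from Cd24a, at a log2 mean of 11.51 in Erg -/- MPPs and 11.46 in Erg fl/fl MPPs. Of the 6 log2 differences 5 were negative and 2 were called lower by limma. They ran from -4.75 to 0.05, with a median of -0.98. Sums of mast cell and basophil markers were 144 to 179 in Erg -/- MPPs, against 274 to 736 in Erg fl/fl MPPs, over 4 measured of 7 listed. Among these Mcpt8, a basophil protease, fell by 3.54 on the log2 scale (adjusted p = 0.0029 by limma). Stem cell marker sums were 788 to 956 in Erg -/- MPPs, against 2231 to 2481 in Erg fl/fl MPPs. These sums follow the brightest markers. The median over the 4 measured averaged 6.25 in Erg -/- MPPs and 6.23 in Erg fl/fl MPPs on the log2 scale. Their differences ran from -1.66 to 0.05, with 3 negative and 1 called lower by limma. The part of these markers in the Zfp values was not tested.

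Zfp961 had 6.28, 6.38 and 5.98 in Erg -/- MPPs, against 7.67, 6.86 and 6.85 in Erg fl/fl MPPs. The arrays were apart, with a difference of -0.91 (SE 0.26), 1.88-fold lower, and adjusted p = 0.657 by limma. Zfp873 had 6.41, 6.04 and 5.47 in Erg -/- MPPs, against 6.87, 6.62 and 6.86 in Erg fl/fl MPPs, a difference of -0.81 (SE 0.24, adjusted p = 0.696 by limma) with no overlap.

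These were also the only 2 members that were lower without overlap in both genotype comparisons, 0.897% of Zfp genes against 0.421% of all genes. In HSCs Zfp961 had 6.54, 6.84 and 6.44 in Erg +/- cells, against 7.08, 7.73 and 6.95 in Erg +/+ cells. Zfp873 had 5.60, 5.84 and 6.13 in Erg +/- HSCs, against 6.74, 6.64 and 6.32 in Erg +/+ HSCs. The HSC and MPP comparisons share no arrays. For 0 members were the groups apart in opposite directions (0.31% of all genes), and for 0 were they higher in both (0.361%).

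Zfp617, the neighbour of Zfp961 with 0 genes between them, had 4.99, 6.40 and 5.29 in Erg -/- MPPs, against 6.60, 6.26 and 6.02 in Erg fl/fl MPPs, where 1 Erg -/- array lay within the other group's range. This pair of neighbours was picked out after the values were seen.

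Zfp212 averaged 5.59 ± 0.39 in Erg -/- MPPs and 6.24 ± 0.24 in Erg fl/fl MPPs, and Zfp408 averaged 5.50 ± 0.04 in Erg -/- MPPs and 5.96 ± 0.35 in Erg fl/fl MPPs (SD, n = 3 each). Both were lower without overlap, and the remaining members with the lowest p-values on that side were Zfp583, Zfp959 and Zfp51. On the higher side Zfp980 had 4.01, 4.71 and 4.49 in Erg -/- MPPs, against 1.66, 3.77 and 3.45 in Erg fl/fl MPPs. The arrays were apart, the difference was 1.44 (SE 0.46, adjusted p = 0.921 by limma), and 1 Erg fl/fl array lay far below the rest at 1.66. Zfp872 averaged 4.12 ± 0.04 in Erg -/- MPPs and 3.84 ± 0.27 in Erg fl/fl MPPs. Zfp735, Zfp174, Zfp300, Zfp946, Zfp974 and Zfp646 were the other members with the lowest p-values on this side, with differences between 0.34 and 0.69. Some probe sets that name several genes ran the other way. One that names Zfp646 had -0.20 (SE 0.31), and those that name Zfp974 had -0.21 (SE 0.32) and -0.45 (SE 0.27). Those that name Zfp980 were positive, at 0.26 (SE 0.24), 0.41 (SE 0.41) and 0.44 (SE 0.31).

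**Figure D4:**
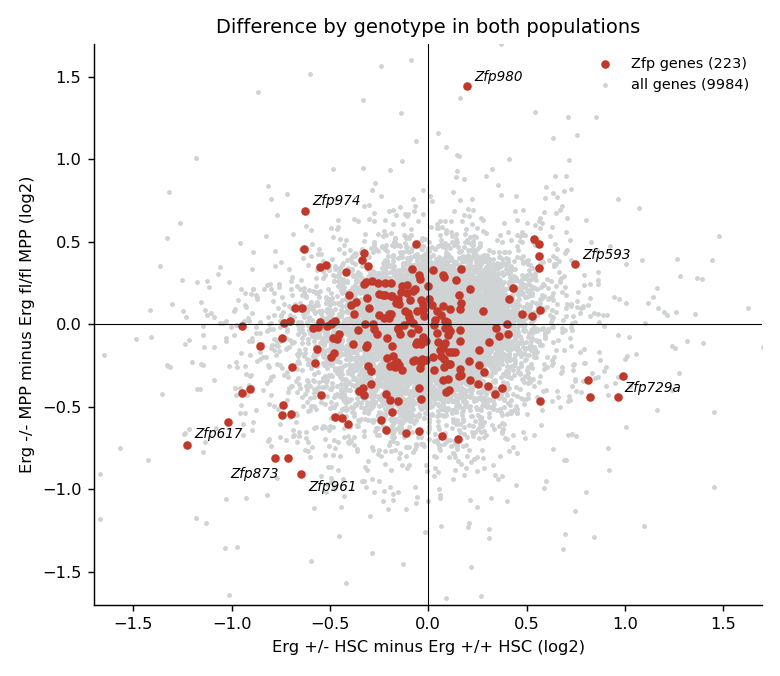
Log2 difference of Erg +/- HSC minus Erg +/+ HSC (x axis) against Erg -/- MPP minus Erg fl/fl MPP (y axis) for the 223 Zfp genes (red) and all genes (grey), with 33 genes outside the axes. Of the Zfp genes, 77 are negative on both axes and 31 positive on both.

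Across the Zfp genes both differences were negative for 77 (34.5%, against 25.7% of all genes) and both positive for 31 (13.9%, against 28.9%). The differences in HSCs and MPPs had Pearson's r = 0.14 and Spearman's rho = 0.05 over 223 genes, which are not independent replicates, and r = 0.13 and rho = 0.13 over all genes. The test of the difference of effects, MPP minus HSC, called 0 Zfp genes by limma, where 0.02% of all genes were called, and 8 had an unadjusted p under 0.05 (3.59%, against 3.88%). Of these, 6 were positive (2.69%, against 1.43%) and 2 negative (0.897%, against 2.44%), and over all members 107 were negative (48%, against 53.9%). The lowest p-value among them was that of Zfp646, with a difference of effects of 0.89 (SE 0.30). It averaged 6.63 ± 0.10 in Erg +/- HSCs and 7.18 ± 0.43 in Erg +/+ HSCs, against 6.63 ± 0.19 in Erg -/- MPPs and 6.28 ± 0.16 in Erg fl/fl MPPs. A probe set shared by Zfp646 and Tubb4b did not show this, with a difference of effects of -0.29 (SE 0.43). On the other side, Zfp729a had a difference of effects of -1.40 (SE 0.55).

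Between the controls, the median Zfp gene was lower in Erg fl/fl MPPs and the median of all genes was higher. This comparison uses the same Erg +/+ HSC arrays as the HSC comparison and the same Erg fl/fl arrays as the MPP comparison. It is therefore not independent of either. The difference Erg fl/fl MPP minus Erg +/+ HSC was below 0 for 125 of 223 Zfp genes (56.1%, against 37.6% of all genes), and the median was -0.08, against 0.12 for all genes, so that relative to all genes the Zfp genes stood further down. The Zfp median was -0.02 without replicate 3 of the Erg fl/fl MPPs or replicate 2 of the Erg +/+ HSCs, and -0.04 without replicate 2 of the Erg fl/fl MPPs or replicate 3 of the Erg +/+ HSCs. The median of all genes was 0.02 with repeated quantile normalisation, where Zfp genes had -0.09, so the signs stayed opposite. It was -0.002 with the filter at the 50th percentile, where Zfp genes had -0.11, so both medians were then negative. At an unadjusted p under 0.05 there were 39 (17.5%, against 22.3%), 30 of them lower (13.5%, against 7.91%) and 9 higher (4.04%, against 14.4%). Without replicate 3 of the Erg fl/fl MPPs 19 were lower (8.52%, against 5.67%). The groups did not overlap for 24 lower (10.8%, against 8.54%) and 15 higher (6.73%, against 18.5%). By limma 1 Zfp gene was called, or 0.448%, where 1.28% of all genes were. It was lower, as 0.631% of all genes were, and 0 were called higher, where 0.651% of all genes were.

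Markers of other cells differed in the same arrays. Of the 6 measured B cell markers 3 were called higher, with sums of 4024 to 4795 in Erg fl/fl MPPs, against 2709 to 3241 in Erg +/+ HSCs. Most of these sums came from Cd24a, at a log2 mean of 11.46 in Erg fl/fl MPPs and 11.37 in Erg +/+ HSCs. The 6 log2 differences were all positive, from 0.09 to 3.00. Mast cell and basophil sums were 274 to 736 in Erg fl/fl MPPs, against 132 to 149 in Erg +/+ HSCs, and Mcpt8 rose by 4.13 on the log2 scale (adjusted p = 0.000242 by limma). Endothelial and stromal sums were 363 to 553 in Erg fl/fl MPPs, against 529 to 1131 in Erg +/+ HSCs, and these ranges overlapped. Of the 5 differences 4 were negative and 1 positive, from -1.61 to 0.12. Only that of Sparc was called, with a fall of 1.40 (adjusted p = 0.0351 by limma). The part of these marker genes in the Zfp values was not tested.

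Zfp174, a SCAN-domain protein whose human counterpart is a transcriptional repressor, fell in Erg fl/fl MPPs relative to Erg +/+ HSCs. It had 4.69, 4.55 and 5.09 in Erg fl/fl MPPs, against 5.55, 6.03 and 5.80 in Erg +/+ HSCs, a difference of -1.02 (SE 0.21), 2.03-fold lower, with adjusted p = 0.0351 by limma and no overlap. With 1 array of the Erg fl/fl MPPs left out, adjusted p by limma was 0.0633 without replicate 1 and 0.12 without replicate 2. It was 0.084 without replicate 2 of the Erg +/+ HSCs, 0.0752 without their replicate 3, and 0.0505 without replicate 3 of the Erg -/- MPPs, so the call was lost in these 5 cases. The genotype groups of Zfp174 overlapped, with 5.70, 5.53 and 5.13 in Erg +/- HSCs and 5.03, 5.31 and 5.15 in Erg -/- MPPs.

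Zfp511 had 6.87, 5.89 and 6.43 in Erg fl/fl MPPs, against 7.84, 7.72 and 7.69 in Erg +/+ HSCs, with a difference of -1.35 (SE 0.31, adjusted p = 0.0536 by limma). Zfp319 had 6.46, 6.63 and 6.52 in Erg fl/fl MPPs, against the 7.15, 7.10 and 7.38 of Erg +/+ HSCs given above (-0.67, adjusted p = 0.0571 by limma). Both were apart. The second probe set of Zfp319 averaged 5.79 ± 0.14 in Erg fl/fl MPPs and 5.95 ± 0.93 in Erg +/+ HSCs, a difference of -0.15 within the spread, and the mean of both probe sets differed by -0.41 (adjusted p = 0.308 by limma). Zfp982 and Zfp646 followed, with differences of -1.11 and -0.90. The probe sets that name Zfp982 among several genes did not show its fall, with differences of 3.38 (SE 1.19) and 0.01 (SE 0.24). One shared by Zfp646 and Tubb4b had -0.37 (SE 0.31). In the other direction Zfp189 averaged 7.43 ± 0.27 in Erg fl/fl MPPs and 6.62 ± 0.14 in Erg +/+ HSCs (0.81, adjusted p = 0.0586 by limma), Zfp112 averaged 4.84 ± 0.15 in Erg fl/fl MPPs and 4.03 ± 0.03 in Erg +/+ HSCs, and Zfp53, Zfp280b and Zfp382 had differences between 0.57 and 0.70.

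Members with known roles had no called difference, so their levels are given. Zfp423, a cofactor of EBF and SMAD proteins, averaged 5.51 ± 0.14 in Erg +/- HSCs, 5.43 ± 0.20 in Erg +/+ HSCs, 5.86 ± 0.30 in Erg -/- MPPs and 5.57 ± 0.18 in Erg fl/fl MPPs. Zfp42, known as Rex1 in embryonic stem cells, was dim, at 3.94 ± 0.35 in Erg +/- HSCs, 3.87 ± 0.19 in Erg +/+ HSCs, 3.83 ± 0.23 in Erg -/- MPPs and 3.98 ± 0.12 in Erg fl/fl MPPs. Zfp281, a pluripotency regulator, had means between 7.46 and 7.80, and Zfp568, a KRAB protein that represses a placental Igf2 transcript, between 5.12 and 5.55.

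Zfp809, a KRAB protein that silences retroviral DNA, had 7.92, 7.42 and 7.90 in Erg +/- HSCs, against 8.52, 9.19 and 7.63 in Erg +/+ HSCs. It had 8.02, 7.63 and 7.59 in Erg -/- MPPs, against 8.44, 8.33 and 8.11 in Erg fl/fl MPPs. The MPP arrays were apart and the HSC arrays overlapped, with a difference of -0.70 (SE 0.32, adjusted p = 0.789 by limma) in HSCs. Zfp638, which acts in silencing of unintegrated retroviral DNA, had means between 7.63 and 8.26, and its arrays overlapped between genotypes.

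Of the members that act on RNA or in division, Zfp207, a kinetochore protein that binds Bub3, had the highest probe set mean of all Zfp genes, with group means between 9.41 and 9.76. Zfp326, part of a complex that links RNA polymerase II to splicing, averaged 7.55 ± 0.37 in Erg -/- MPPs and 7.96 ± 0.21 in Erg fl/fl MPPs. Among the genes listed for blood and immune cells, 12 of 28 were measured, and 9 of the 12 differences in HSCs were negative. Zfp148, which binds GC-rich promoters, averaged 8.35 ± 0.23 in Erg -/- MPPs and 8.76 ± 0.11 in Erg fl/fl MPPs, with no overlap. Zfp451, a SUMO ligase, averaged 7.46 ± 0.01 in Erg +/- HSCs and 7.71 ± 0.20 in Erg +/+ HSCs, also apart. Zfp318, needed for IgD expression in mouse B cells, had group means between 6.46 and 7.06, and Zfp644, a partner of the methyltransferases G9a and GLP, between 8.14 and 8.77.

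The share of lower members in HSCs was also counted by brightness. All genes were cut by mean level into 4 bins of 2496. In the dimmest bin 15 of 28 Zfp genes had a negative difference (53.6%, against 40.7% of all genes in the bin), and in the brightest 34 of 49 did (69.4%, against 52.6%). In the bin below the brightest, which held 86 Zfp genes, it was 59 (68.6%, against 51.6%). In the bin above the dimmest it was 35 of 60 (58.3%, against 39.9%). In MPPs the brightest bin had 69.4% of Zfp genes below 0, against 71.6% of all genes there. The share was above that of all genes in the rest. From the dimmest bin up it was 39.3% (against 36.3%), 51.7% (against 40.4%) and 58.1% (against 54.1%).

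By chromosome, 61 Zfp genes lie on chromosome 7, 23 on chromosome 17 and 21 on chromosome 13 in RefSeq GRCm38.p6. Clusters were defined as at least 5 measured members with no more than 10 other genes between neighbours, and 6 clusters held 56 members. The 12 genes of chromosome 13 between Zfp759 and Zfp273 had a median of -0.35 in HSCs, with 8 of 12 negative and a range of -0.95 to 0.96. This was the lowest of the 6 medians with all arrays, but it was -0.04 without replicate 2 and -0.08 without replicate 3 of the Erg +/+ HSCs, and -0.22 without replicate 3 of the Erg +/- HSCs. Without either of those Erg +/+ arrays the 6 genes of chromosome 7 between Zfp771 and Zfp689 were lower, at -0.17 and -0.21. The 12 of chromosome 17 between Zfp677 and Zfp946 ranged from -0.74 to 0.57 with a median of -0.04. Over all clusters 34 of 56 differences in HSCs were negative (60.7%), against 109 of 167 outside clusters (65.3%). The cluster medians in HSCs lay between -0.35 and 0.16 with all arrays. Leaving out 1 array changed the sign of 4 of the 6, and the highest, that of the 5 genes between Zfp607b and Zfp850, then ran between -0.17 and 0.39.

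**Figure D5:**
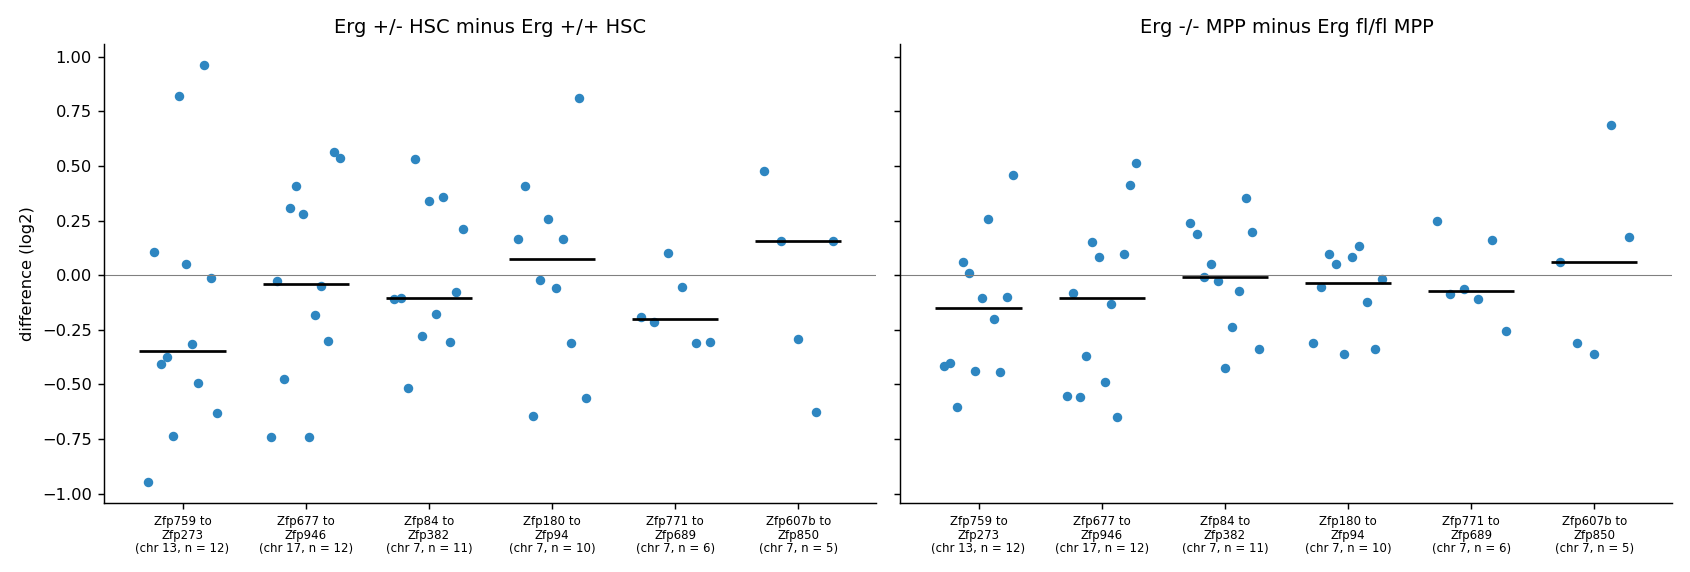
Log2 differences of the 56 Zfp genes in 6 chromosomal clusters (points, in chromosomal order) with the median of each cluster (line), in the Erg +/- HSC and Erg -/- MPP comparisons. In the chromosome 13 cluster the HSC differences run between -0.95 and 0.96.

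The differences were also counted by promoter letters. With CCGGAAG, 25 of 42 members had a negative difference in HSCs (59.5%), against 90 of 144 without it (62.5%). In MPPs it was 28 of 42 (66.7%), against 82 of 144 (56.9%).

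Other zinc finger gene families were set beside the Zfp genes by name. In HSCs the median difference was -0.02 for 28 Zbtb genes, -0.02 for 16 Zscan and Zkscan genes, -0.10 for 14 Zc3h genes and 0.20 for 8 Klf genes, against -0.09 for Zfp genes. Differences between the families were not tested. Of the corepressor genes that work with KRAB proteins, 14 of 29 listed were measured and 0 were called in any of the 4 comparisons, where 0.02 to 1.28% of all genes were. At an unadjusted p under 0.05 there were 0 in either genotype comparison (against 6.32% of all genes in HSCs and 4.79% in MPPs) and 5 of 14 between the controls (35.7%, against 22.3%), 2 higher and 3 lower in Erg fl/fl MPPs. Setdb1 averaged 7.13 ± 0.42 in Erg +/- HSCs and 7.49 ± 0.07 in Erg +/+ HSCs, and 7.38 ± 0.31 in Erg -/- MPPs and 7.79 ± 0.17 in Erg fl/fl MPPs.

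The range of levels among Zfp genes was wide on this log2 scale, from the dimmest means of Zfp345, Zfp735 and Zfp947 to the brightest of Zfp207, Zfp971, Zfp825, Zfp141 and Zfp871, although probe sets differ in affinity and levels of different genes are not set against each other. Group means varied most for Zfp442, Zfp456, Zfp980, Zfp119b and Zfp40. Zfp442 averaged 3.41 ± 0.38 in Erg +/- HSCs, 4.31 ± 0.87 in Erg +/+ HSCs, 2.56 ± 0.29 in Erg -/- MPPs and 2.95 ± 0.34 in Erg fl/fl MPPs. A probe set shared by Zfp442, Zfp937 and another gene ran the other way between the controls. It averaged 7.41 ± 0.20 in Erg +/+ HSCs and 8.46 ± 0.47 in Erg fl/fl MPPs. Zfp456, in the chromosome 13 cluster, averaged 6.98 ± 0.81 in Erg +/- HSCs, 7.71 ± 0.43 in Erg +/+ HSCs, 6.28 ± 0.37 in Erg -/- MPPs and 6.27 ± 0.61 in Erg fl/fl MPPs, with all 6 MPP arrays below all 3 Erg +/+ HSC arrays.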

How the data were processed

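The deposited values are log2 expression values on 18719 probe sets, which the authors made with RMA and the affy package per the submitters' processing notes; versions and whether all arrays were normalised together are not given in the sources used here. RMA values are relative to the other probe sets of an array, and these arrays did not share 1 distribution, with interquartile ranges over all genes of 2.06 to 2.71. Per the labels, 20 ng of total RNA was amplified for each sample. The probe annotation gives 10657 probe sets 1 symbol and 523 several, and 7539 are not listed. Each gene took its probe set with the highest mean, which gave 9984 genes and 223 Zfp genes, all matched to RefSeq. Of these, 3 have a second probe set, and 20 probe sets that name several genes, a Zfp gene among them, were kept out. No filter was set on dim genes.

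The tests used limma 3.58.1 in R 4.3.3, with 1 model over 12 arrays and a mean for each group, two-sided, with Benjamini-Hochberg adjustment over 9984 genes and a threshold of 0.05. It was tested on simulated data. SE is the moderated standard error. The spread behind each p-value may be technical, since separate animals are not stated. Arrays carry no read depth, and 3 arrays per group limit the precision. Nothing states that the replicate numbers of the titles pair samples, so the main model left them out. Deviations of same-numbered arrays correlated at -0.0852 to 0.0862 within the genotype comparisons. Such low values cannot show that pairing was absent. Motifs were counted with Python 3.11.15.

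The members, gene lists and named genes were chosen with earlier results of these data known. Named were the called members, the 8 lowest p-values in each direction of each genotype comparison and 5 in the others, the 5 brightest, the 3 dimmest, the 5 most variable and members of role lists. The role lists for CCCH mRNA decay and the Z3 complex had 0 measured members. Zfp141's and Zfp319's second probe sets were named after their values were seen. A planned split by protein features was not run, since no protein sequences were used here. Alternatives were filters at the 25th and 50th percentile, the mean of probe sets, all probe sets, array weights, an intensity trend, median centring, repeated quantile normalisation, only the arrays compared, a replicate block and each array left out.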

Additional observations from a re-analysis of the deposited data

How the results depend on the processing

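Counts of called Zfp genes in both genotype comparisons and in the difference of effects were 0 under all 23 alternatives. In the comparison of controls the count of 1 became 2 with the filter at the 25th percentile, 2 with arrays centred on their median, 3 with array weights, and 0 with all probe sets, with only the arrays compared or without the 2 arrays of lowest weight (replicate 1 of Erg fl/fl MPPs and replicate 1 of Erg +/+ HSCs), an alternative chosen after seeing the data. Leaving out 1 array gave 0 to 3. With the replicate block it was 5, though nothing states that the numbers pair the samples. The shares of all genes called under the same alternatives are not given here. These counts are therefore no result about Zfp genes in particular. The cause of the changes in the count was not tested. Zfp174 kept its direction in all 22 alternatives that gave a value, many of which cannot move its difference. It lost its call with all probe sets (adjusted p = 0.103 by limma), only the arrays compared (0.0789), the replicate block (0.058), the arrays of lowest weight left out (0.0913) and the 5 single arrays named above.

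In HSCs the count of Zfp genes with a negative difference was 130 to 144 of 223 over the alternatives without a filter, and those lower at an unadjusted p under 0.05 numbered 14 to 24, against 21. The 14 came without the 2 arrays of lowest weight (6.28%, against 3.66% of all genes), and 15 came with only the arrays compared and without Erg +/+ HSC replicate 1, Erg +/- HSC replicate 1 or Erg +/- HSC replicate 3. The median stayed between -0.15 and -0.06. In MPPs the median of -0.04 ran between -0.10 and -0.01 with 1 array left out, with 115 to 143 negative, and became 0.02 with repeated quantile normalisation, where all genes had 0.02 and 108 were negative. Between the controls it ran between -0.11 and -0.02. The median difference of effects, 0.04, became 0.12 without the arrays of lowest weight and ran between 0.01 and 0.09 with 1 array left out. Of 1601 recomputed differences of named genes, 1574 kept direction and side of the threshold, 9 lost and 18 gained the call, and 0 changed sign. That count covers role genes only where the unadjusted p was under 0.1, a limit set after the values were seen. It is no measure of robustness, since most named genes were picked by low p-values in these same data. Many alternatives also leave a difference as it was, such as another test or an array of a group not compared. For the other role genes 1306 of 1367 values kept their sign. Counting only protein-coding genes between neighbours, added later, gave 9 clusters. The motif share of 22.6% was 39.2% with CGGAAG and 96.2% with GGAA, which are shorter and contained in it.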

Other observations

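The 20 probe sets that name several genes, at least 1 of them a Zfp gene, were outside the 223. Their median difference was -0.03 in Erg +/- HSCs relative to Erg +/+ HSCs, with 11 of 20 negative, and -0.13 in Erg -/- MPPs relative to Erg fl/fl MPPs, with 14 of 20 negative, and limma called 0 in either comparison. Between the controls it was -0.02, with 10 of 20 negative, a range of -0.62 to 3.38 and 0 called by limma. The probe set shared by Zfp975, Zfp976 and others had the lowest p-value of the 20 in HSCs. It averaged 6.33 ± 0.49 in Erg +/- HSCs and 7.04 ± 0.25 in Erg +/+ HSCs (SD, n = 3 each). The largest difference in the other direction in HSCs was 0.65 (SE 0.41), for a probe set shared by Zfp980, Zfp981 and others. The second probe set of Zfp825 averaged 7.46 ± 0.44 in Erg +/- HSCs and 7.52 ± 0.34 in Erg +/+ HSCs, within the spread.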
